A study of Mus musculus with 4 samples.

Results

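The RNA of brain tissue from old tumor-bearing mice was compared with that from young tumor-bearing mice, gene by gene. The files listed 54532 genes, of which 21995 were protein-coding in GENCODE M21. The comparison was made over the 13656 protein-coding genes that reached 1 FPKM (a fragment count divided by gene length and by library depth, as the authors deposited it) in at least 1 of both libraries. The study engrafted C57BL/6 mice in the brain with 50000 cells of GL261, a transplantable mouse glioma line, and took tissue that its labels call extra-tumoral on day 21. Young engrafted mice were 8 to 12 weeks old. Old engrafted mice were given as 8 to 90 weeks old, a range that takes in the ages of the young mice, and naive mice are labelled only as young or old. None of the 4 groups received a treatment, and the naive samples, though labelled as controls without a tumor, carry the same GL261 tag as the others. Each group was 1 library of poly-A RNA. The number of mice in each, whether mice were pooled, and how far from the tumor the tissue was cut are details that the sources used here do not give.

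No difference below has a replicate check, so no test between groups was made, and each statement compares libraries. A gene was called higher or lower when the FPKM values, each with 0.1 added, were at least 2-fold apart, an addition that understates the difference of low genes. Folds are ratios of FPKM without that addition, and the ranges in parentheses after them are exact 95% intervals of the reads recovered from the FPKM values. They cover counting error only. Where 4 levels follow a gene, the first pair is young tissue and the next pair old tissue, each with the naive library before the tumor-bearing one. Ispd, at 1.0041 and 0.9205 FPKM in young and old tumor-bearing tissue, lay just inside the floor for entry, and Smagp, at 0.8538 and 0.9987 FPKM, just outside it.

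As background, a glioma in the brain of an immune-competent mouse is met by microglia, the resident macrophages of brain tissue, by astrocytes that turn reactive, and by macrophages and lymphocytes that enter from the blood. Interferons made by these cells act through interferon regulatory factors to induce antiviral genes, chemokines and the machinery that presents peptides on major histocompatibility complex (MHC) molecules. Brain regions differ strongly in the genes their neurons express, so bulk RNA also reports which regions a piece of tissue held. In bulk RNA, fewer cells of a type and less RNA per cell cannot be told apart.

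Recovered fragments in genes came to 21893363 in the young and 19572251 in the old tumor-bearing library. A count of 0 leaves room for 3 reads, which in a 1 kb gene were worth 0.150 and 0.129 FPKM. Markers of the labelled tissue were present in both libraries: the 6 neuronal markers summed to 708 and 227 FPKM, the 6 astrocyte markers to 870.0 and 357 FPKM, and the 6 oligodendrocyte markers to 1088 and 549 FPKM. Mitochondrially encoded genes held 4.72% and 2.12% of fragments. The libraries stand apart in region and in dividing cells. Sums over 16 cerebellar genes were 818, 781, 113 and 40.3 FPKM, so both old libraries were low in them. Sums over 14 choroid plexus genes were 423, 408, 8.45 and 469.5 FPKM, so the old naive library alone was low. The 5 markers of proliferating cells summed to 0.732, 5.36, 0.458 and 117 FPKM. The sources used here do not say how much tumor each library held, and with 1 library a group tumor amount and age cannot be told apart.

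Old and young tumor-bearing tissue differed widely. In the old library 2404 genes (17.6%) were higher, 3811 (27.9%) were lower and 7441 (54.5%) lay within 2-fold. The median log2 ratio over all genes compared was -0.27, the middle 50% of genes lay between -1.11 and 0.59, and the highest 5% began at 2.67. The higher side had the longer tail, since 525 genes were at least 8-fold higher and 113 at least 8-fold lower. The balance of higher and lower genes depended on the scale. Higher genes were 38.7% of those called as deposited, 50.5% (3015 higher, 2951 lower) with median-of-ratios scaling, which moved every log2 ratio by 0.27, and 55.6% (3303 higher, 2634 lower) with scaling by fragments in genes, which moved it by 0.38. Of the genes compared, 938 entered through the old library alone and 1034 through the young library alone. For such genes the floor fixed the direction of the difference, also where the list counts and medians below include them.

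**Figure D1:**
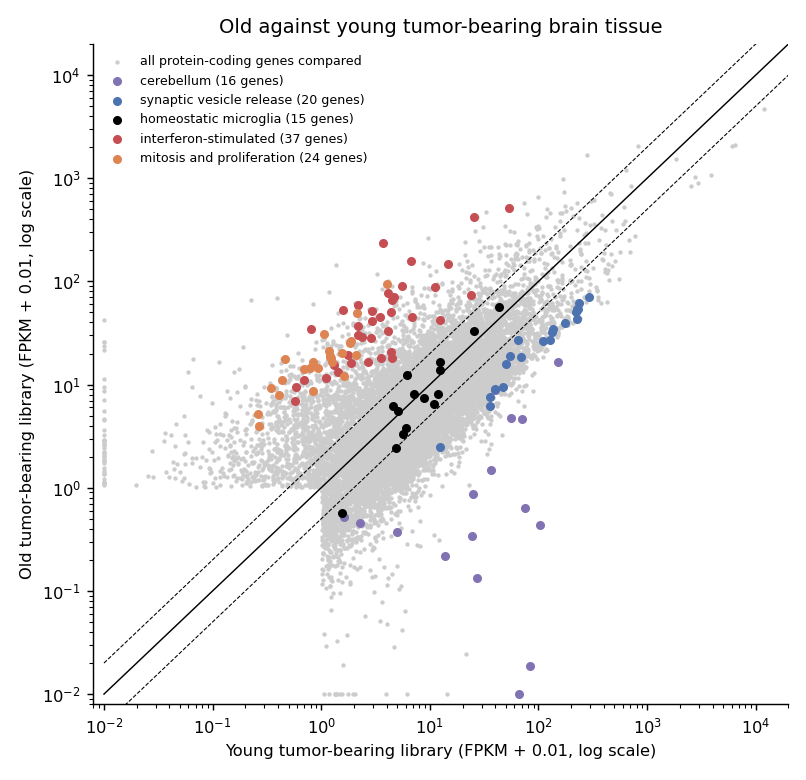
FPKM + 0.01 of each protein-coding gene in the young (horizontal) and old (vertical) tumor-bearing library, both on log axes, with equality as a solid line and 2-fold as dashed lines. Interferon-stimulated and mitosis genes all lie above the upper dashed line, synaptic and cerebellar genes all below the lower one, and 14 of 15 homeostatic microglia genes lie within 2-fold.

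The same age comparison in naive tissue, which shares no library with the tumor-bearing one, gave far fewer differences. Of 12745 genes compared there, 415 (3.26%) were higher and 391 (3.07%) lower in the old library, with a median log2 ratio of 0.04. Of the genes lower in old tumor-bearing tissue, 3324 of the 3754 that entered the naive comparison (88.5%) were within 2-fold there, as were 1371 of 1468 higher ones (93.4%). Genes lower in both numbered 242, 6.35% of the tumor-bearing set and 61.9% of the naive set, against 27.9% of all genes compared that were lower in old tumor-bearing tissue. The lowest ratios in this overlap belonged to cerebellar genes such as Gabra6 and Cbln3. Genes higher in both numbered 63, 2.62% of the tumor-bearing set and 15.2% of the naive set, which is no more than the 17.6% of all genes compared. C4b, a complement gene, was among them at 3.92, 30.3, 17.4 and 79.7 FPKM.

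**Figure D2:**
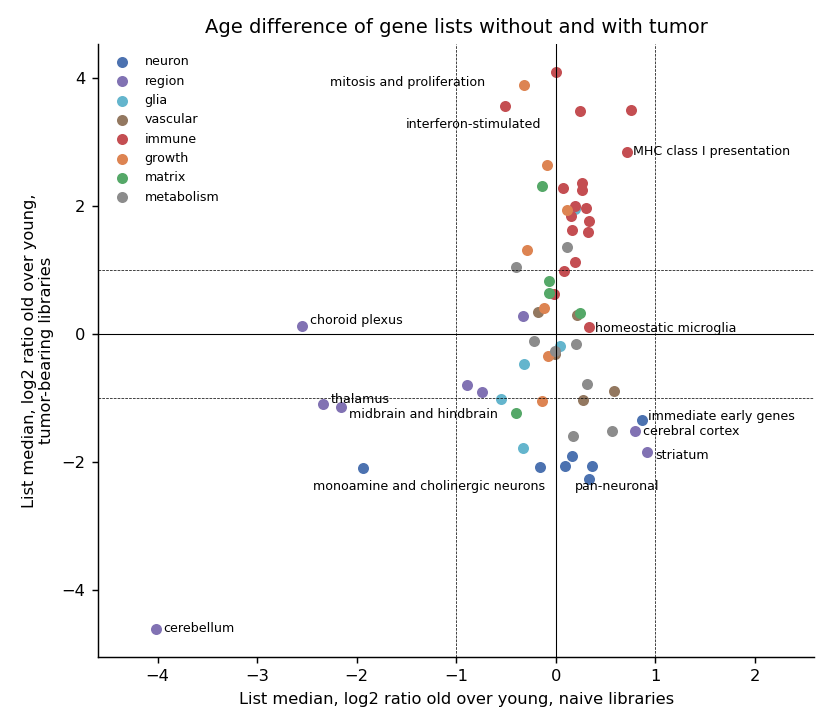
Median log2 ratio, old over young, of each gene list with at least 3 measured members, in the naive libraries (horizontal) and the tumor-bearing libraries (vertical), coloured by the kind of list, with dashed lines at 2-fold. Cerebellum is low on both axes (-4.02 and -4.61), choroid plexus is low on the naive axis but near 0 on the other (-2.55 and 0.12), and most immune lists sit near 0 on the naive axis and high on the tumor-bearing one.

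Genes of the cerebellum had the lowest ratios in the old tumor-bearing library. All 16 listed genes were lower, with a median log2 ratio of -4.61, and all 16 were also lower in old than in young naive tissue, with a median of -4.02. Cbln3, a secreted protein of cerebellar granule cells, was at 70.8, 84.0, 0.144 and 0.00884 FPKM, the last from 1 read, a ratio of 9506 (1706 to 375525). Gabra6, the GABA-A receptor subunit of granule cells, was at 81.5, 65.7, 0.0770 and 0 FPKM, at least 1267-fold lower in the old tumor-bearing library. Among genes of Purkinje cells, the output neurons of the cerebellar cortex, Car8 was at 113, 103, 2.29 and 0.424 FPKM, 244-fold lower (178 to 345), and Pcp2 at 26.4, 24.4, 0.175 and 0.329 FPKM, 74.1-fold lower. Ppp1r17, another Purkinje cell gene, was 221-fold lower (94.3 to 682). The split was by age label, with both young libraries high and both old libraries low. The same held for Fat2, Cbln1, En2 and Lhx1, which were among the 15 lowest genes of the whole comparison. Without all genes at least 2-fold apart between the naive libraries, a set chosen after the values were seen, 3381 genes were still lower and 2307 higher, and no cerebellar gene was left.

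Genes of other regions differed in pattern. In the list for the choroid plexus, the epithelium that makes cerebrospinal fluid, 9 of 12 genes that entered lay within 2-fold and the median log2 ratio was 0.12, a sign that every scaling kept. Ttr, its transthyretin carrier, stood at 402, 383, 4.88 and 445 FPKM, so tumor-bearing libraries differed by 1.16-fold (1.13 to 1.20) while the old naive library was far below the others. Thalamic genes summed to 166, 149.7, 26.4 and 49.5 FPKM, low in both old libraries as for the cerebellum, and 6 of 11 were lower, led by Calb2, a calcium buffer of many interneurons, at 11.7-fold, and by Slc17a6, the vesicular glutamate transporter of subcortical neurons, at 22.2, 18.6, 2.90 and 3.31 FPKM. Cortical genes summed to 379, 358, 690.1 and 96.7 FPKM and striatal genes to 455, 368, 847 and 95.7 FPKM. In both regions the old naive library held the most and the old tumor-bearing library the least. Of 15 cortical genes 13 were lower, among them Slc17a7, the cortical vesicular glutamate transporter, at 175, 174, 355 and 44.2 FPKM, and Cux2, a transcription factor of upper cortical layers, 6.51-fold lower. With scaling by fragments in genes 9 of the cortical and 4 of the thalamic genes were lower. Of 16 striatal genes 14 were lower, such as the dopamine receptor Drd1, at 8.29, 7.0, 19.3 and 1.26 FPKM, and 1, the transcription factor Isl1, was 2.88-fold higher at 0.429 and 1.24 FPKM in young and old tumor-bearing tissue. The part of brain region in the differences below was not tested.

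Most neuronal genes were lower in old tumor-bearing tissue. Of 18 pan-neuronal genes 16 were lower and 0 higher, with a median log2 ratio of -2.06, against 0.09 in naive tissue. Snap25, a membrane fusion protein of synaptic vesicles, was at 262, 226, 325 and 43.5 FPKM, 5.20-fold lower (5.07 to 5.34). Rbfox3, the splicing factor known as the NeuN antigen, was at 54.5, 57.3, 79.6 and 10.2 FPKM, 5.61-fold lower. Young naive, young tumor-bearing and old naive tissue were close together for both genes, and the old tumor-bearing library was alone at the bottom. Elavl4, a neuronal RNA-binding protein, had the widest gap of the list, 7.30-fold (6.46 to 8.27). The 2 genes within 2-fold were Tubb3, a neuronal tubulin, 1.45-fold lower at 166 and 115 FPKM, and Uchl1, a ubiquitin hydrolase, 1.40-fold lower at 201 and 143 FPKM. The part of tumor tissue in the neuronal differences was not tested.

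Synaptic genes were lower without exception: 20 of 20 members of the vesicle release list were lower, with a median of -2.07 and ratios from -2.52 to -1.25. Rims1, a scaffold of the active zone, was 5.83-fold lower at 35.9 and 6.15 FPKM. Syt4, a synaptotagmin, was nearest to equality, 2.38-fold lower at 64.4 and 27 FPKM. Of 21 glutamate receptor genes 20 were lower (median -1.91), and the exception was the kainate receptor Grik3, 1.61-fold lower. The widest gaps in that list were in Grm4, at 38.7, 33.5, 10.9 and 2.12 FPKM, Gria4, at 40.3, 34.1, 17.2 and 3.31 FPKM, and Grin2c, at 35.1, 44.1, 21.7 and 4.90 FPKM. For these 3 the old naive library also lay below both young ones, as it did for cerebellar genes, and the part of brain region was not tested. All 13 GABA-A receptor genes were lower (median -2.08), among them Gabra6 of cerebellar granule cells. Without genes at least 2-fold apart between the naive libraries, 17 of 18 glutamate receptor genes and 12 of 12 GABA-A receptor genes were lower (medians -1.90 and -2.01). That filter used the naive libraries alone, so it does not test region differences between the tumor-bearing ones. Of 16 inhibitory neuron genes 14 were lower (median -2.26). Gad1, which makes GABA, was 5.41-fold lower at 57.9 and 10.7 FPKM, and Pvalb, the calcium buffer of fast-spiking interneurons and Purkinje cells, was at 173, 151, 62.7 and 16.7 FPKM. Dlx1 and Dlx2, transcription factors of the interneuron lineage, were 1.94-fold and 1.54-fold lower. Neurons of the monoamine and cholinergic systems had low levels in every library, and 7 of the 8 genes that entered were lower (median -2.10). With scaling by fragments in genes 5 were lower. Between the naive libraries 6 of the 8 were also lower in old tissue (median -1.94). The dopamine transporter Slc6a3 was at 4.29, 2.03, 0 and 0 FPKM, so both old libraries lacked it.

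Immediate early genes, which neurons and other cells induce within minutes of stimulation, divided. Of 16, 9 were lower and 2 higher in old tumor-bearing tissue, while 7 were higher in old than in young naive tissue. Npas4, a neuron-specific activity gene, was at 5.49, 8.67, 11.6 and 0.905 FPKM, 9.58-fold lower (7.66 to 12.1). Egr4, a zinc finger factor, was 6.38-fold lower. Ier2 and Junb, which many cell types induce, were 4.41-fold higher at 8.48 and 37.4 FPKM and 2.43-fold higher at 21.8 and 52.9 FPKM. Fos itself differed little, at 11.7 and 10.5 FPKM.

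Astrocytes showed lower identity genes beside higher reactive genes. Of 18 astrocyte identity genes 16 were lower and 0 higher (median -1.78). Aldoc, an astrocyte aldolase, was at 376, 344, 294 and 80.5 FPKM, 4.27-fold lower (4.15 to 4.40). Slc1a2, the main glutamate transporter, was at 202, 201, 255 and 51.2 FPKM, 3.93-fold lower. Aqp4, the water channel of astrocyte endfeet, was at 55.1, 59.0, 20 and 18.1 FPKM, so both old libraries were low. Of 27 reactive astrocyte genes 16 were higher and 2 lower (median 1.95). Gfap, the intermediate filament by which reactive astrocytes are usually recognised, was nearly equal at 61.1, 149, 42.2 and 167 FPKM, 1.12-fold higher (1.10 to 1.15). Serpina3n, a secreted protease inhibitor, was at 9.17, 30.7, 7.87 and 339 FPKM, 11-fold higher (10.4 to 11.7), and Vim, another intermediate filament, at 19.6, 49.6, 10.1 and 347 FPKM, 7.0-fold higher. Several of the genes with wide gaps in that list, such as Cxcl10, Psmb8 and Gbp2, are also interferon-stimulated, and Vim, Cd44 and Timp1 are made by many dividing and mesenchymal cells. The 2 lower genes were the adhesion protein Amigo2, 3.20-fold, and the prostaglandin synthase Ptgs2, 2.09-fold.

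In the oligodendrocyte lineage more genes were lower than higher. Of 18 myelin genes 9 were lower and 0 higher (median -1.02), but 1 was lower and 1 higher when libraries were scaled by fragments in genes (median -0.64). Mbp, a structural protein of myelin, was at 425, 397, 356 and 188 FPKM, 2.11-fold lower (2.08 to 2.14), and Trf, transferrin, went the other way at 11.7 and 19.2 FPKM. Of 17 precursor and lineage genes 8 were lower and 2 higher, or 5 and 3 with that scaling. Sox10, the transcription factor shared by all stages, was at 19.4, 21.9, 24.5 and 156 FPKM, 7.13-fold higher (6.74 to 7.56), and Sox6 was 3.33-fold higher at 2.17 and 7.22 FPKM. The precursor markers Pdgfra and Gpr17 were 2.28-fold and 2.92-fold lower, Lhfpl3 was 4.69-fold lower, and Olig2, at 15.1 and 19.5 FPKM, was within 2-fold. Cspg4, another precursor marker, went the other way within 2-fold, 1.96-fold higher at 2.20 and 4.31 FPKM. The 6 precursor markers, with Sox10 among them, summed to 129.9 and 239.5 FPKM. Among 14 neural progenitor genes 5 were lower and 2 higher, a share of higher genes no larger than among all genes compared. The higher ones were Nes, an intermediate filament, at 2.11, 2.70, 3.58 and 22 FPKM, and Sox4, 3.18-fold. Dcx, the microtubule protein of migrating young neurons, was 6.50-fold lower, and Prom1 4.80-fold lower.

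Vascular genes differed less than neuronal ones. Of 20 brain endothelial and barrier genes 12 lay within 2-fold, 7 were lower and 1 higher, and their median of -0.31 turned to 0.06 when libraries were scaled by fragments in genes. Cldn5, the barrier claudin, was at 35.7, 26.1, 39.0 and 23.2 FPKM, and Pecam1 at 4.70, 4.32, 4.39 and 3.60 FPKM. With scaling by fragments in genes 4 were lower and 2 higher. Among transporters of the barrier the glucose carrier Slc2a1 was within 2-fold at 42.5 and 79.7 FPKM and the lactate carrier Slc16a1 nearly equal at 12.4 and 12.2 FPKM. Lower were the organic anion carrier Slco1a4, 3.57-fold at 10.1 and 2.82 FPKM, and the drug efflux pump Abcb1a, 2.69-fold at 8.52 and 3.17 FPKM. Ly6c1 was the higher gene, 2.80-fold at 22.5 and 63.1 FPKM. Of 13 pericyte and smooth muscle genes 7 were lower and 0 higher (median -1.03), or 3 and 2 with that scaling, with Vtn, vitronectin, 3.37-fold lower. Among molecules that help leukocytes leave vessels, Icam1 was 5.31-fold higher at 1.27 and 6.76 FPKM, and Vcam1 nearly equal at 4.32 and 4.01 FPKM. Mcam, an adhesion molecule of pericytes and of several tumors, was at 7.11, 9.55, 8.22 and 261 FPKM, 27.3-fold higher (25.2 to 29.6). Of 5 globin and erythroid genes, a sign of blood left in the tissue, 4 lay within 2-fold and 1 was lower: Hbb-bs was at 201, 169, 309 and 83.5 FPKM, although reads of such near-identical copies may be split between them.

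**Figure D3:**
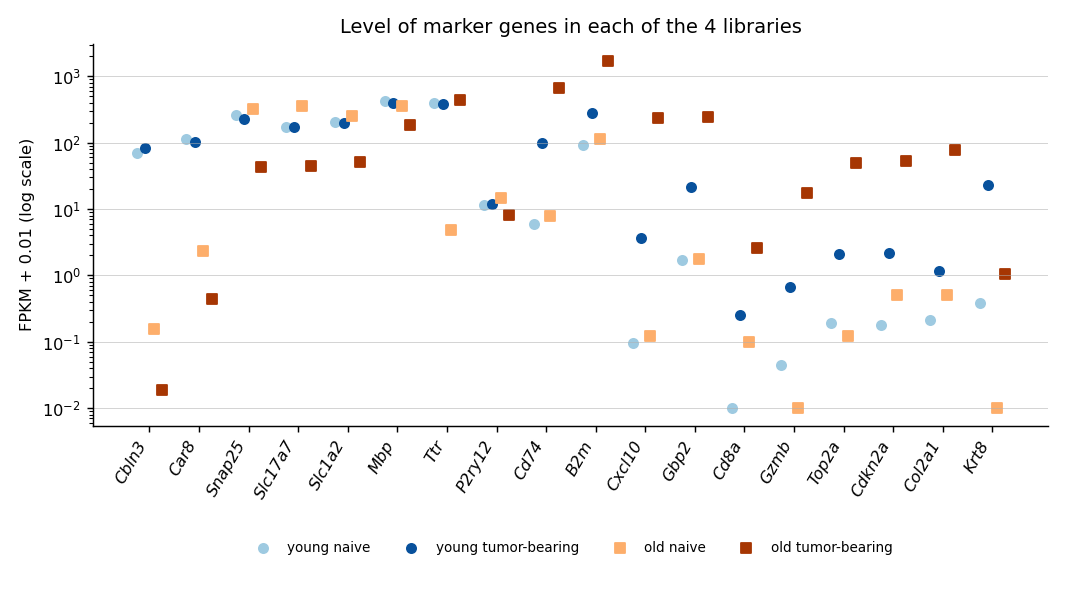
FPKM + 0.01 on a log axis of 18 marker genes in the naive and tumor-bearing libraries of young and old mice, 1 point a library. Cbln3 and Car8 are high in both young libraries, Snap25 is low in old tumor-bearing tissue alone at 43.5 FPKM, Ttr is low in old naive tissue alone at 4.88 FPKM, and Krt8 is high in young tumor-bearing tissue alone at 23.1 FPKM.

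Interferon-stimulated genes were higher in old tumor-bearing tissue throughout. All 37 of those that entered, of 38 listed, were higher, with a median log2 ratio of 3.49 and ratios from 1.6 to 5.97, while their median between the naive libraries was 0.24. Members below 1 FPKM in young tumor-bearing tissue, such as Oas2, entered through the old library alone, so the floor fixed their direction. Cxcl10, a chemokine that draws activated T cells, was at 0.0869, 3.69, 0.114 and 237 FPKM, 64.2-fold higher (55.1 to 75.3). Isg15, a ubiquitin-like antiviral protein, was at 2.65, 6.68, 3.55 and 159 FPKM, 23.7-fold higher (19.5 to 29.2). Oas2, a sensor of double-stranded RNA, was at 0.505, 0.798, 0.431 and 34.4 FPKM, 43.1-fold higher, and Rsad2, the antiviral protein viperin, at 0.338, 1.58, 0.634 and 52.6 FPKM, 33.3-fold higher. For these genes both naive libraries were lowest, young tumor-bearing tissue lay above them, and old tumor-bearing tissue far above all. The smallest gaps were in Ifi27, 3.04-fold, and in Stat2, a transcription factor of interferon signaling, 3.46-fold. Irf7 and Irf1, regulatory factors of the response, were 13-fold and 15.2-fold higher. Macrophage markers (20.9 against 3.91 FPKM), T cell markers (15.7 against 4.47 FPKM) and proliferation markers (117 against 5.36 FPKM) had higher sums in old than in young tumor-bearing tissue, and their part in the immune differences was not tested.

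The GTPases of the GBP and IRG families, which attack the membranes that enclose parasites inside cells, were as high. All 17 that entered were higher (median 3.50). Gbp2 was at 1.67, 21.2, 1.75 and 243 FPKM, 11.5-fold higher (10.8 to 12.2). Igtp was at 2.44, 27.3, 4.96 and 419 FPKM, 15.4-fold higher, and Irgm1 at 1.52, 8.60, 2.15 and 152 FPKM, 17.7-fold higher. Folds within the family began at 7.93 (6.94 to 9.09) for Tgtp2. The highest was that of Gbp2b, 75-fold (31.9 to 232) on a level of 0.0886 FPKM in young tumor-bearing tissue. Gbp2b entered through the old library alone, as did any member below 1 FPKM in young tumor-bearing tissue, so the floor fixed the direction. Reads of Gbp and Tgtp genes with near-identical copies may be split between them. The genes upstream showed less. Of 12 interferon, receptor and feedback genes that entered 5 were higher, 0 were lower and 7 were within 2-fold. Socs1 and Socs3, feedback inhibitors of cytokine signaling, were 7.22-fold higher at 2.11 and 15.3 FPKM and 8.71-fold higher at 3.41 and 29.7 FPKM. Jak2 was equal at 11.8 FPKM in both. Ifng, the gene of interferon gamma, lay below the floor at 0, 0.0386, 0 and 0.830 FPKM, with 1 read in young tumor-bearing tissue, a ratio of 21.5 (3.52 to 883), and Ifnb1 had 0 FPKM in both tumor-bearing libraries.

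Promoters of 4 of these genes are shown because their interferon response elements lie close to the start of genes that were higher together here. Capitals mark GAAA, any 2 bases and another GAAA, the core of the interferon-stimulated response element, searched on both strands of the 250 bases before the RefSeq start, and where capitals read TTTC the match is on the other strand. The letters stood in the promoters of 10 of 11 GBP and IRG genes, 9 of 27 interferon-stimulated genes and 2 of 18 MHC class I presentation genes that had a promoter entry, against 294 of 10683 (2.75%) of all compared genes. Sequences are from RefSeq on GRCm38.p6 (mm10), 5′ to 3′ on the gene's strand. Cxcl10 is at chr5:92348890-92349139 (minus strand), Isg15 at chr4:156200819-156201068 (minus strand), Gbp2 at chr3:142620413-142620662 (plus strand) and B2m at chr2:122147437-122147686 (plus strand).
Cxcl10: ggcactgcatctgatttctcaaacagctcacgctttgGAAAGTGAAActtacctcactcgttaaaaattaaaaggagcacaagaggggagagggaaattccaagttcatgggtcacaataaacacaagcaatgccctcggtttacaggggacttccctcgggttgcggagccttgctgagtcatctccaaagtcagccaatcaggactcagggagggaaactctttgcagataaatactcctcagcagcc
Isg15: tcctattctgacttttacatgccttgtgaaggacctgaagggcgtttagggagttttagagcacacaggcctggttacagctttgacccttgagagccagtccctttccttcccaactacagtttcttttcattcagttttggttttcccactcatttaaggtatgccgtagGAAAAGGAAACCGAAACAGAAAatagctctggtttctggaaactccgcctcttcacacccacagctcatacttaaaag
Gbp2: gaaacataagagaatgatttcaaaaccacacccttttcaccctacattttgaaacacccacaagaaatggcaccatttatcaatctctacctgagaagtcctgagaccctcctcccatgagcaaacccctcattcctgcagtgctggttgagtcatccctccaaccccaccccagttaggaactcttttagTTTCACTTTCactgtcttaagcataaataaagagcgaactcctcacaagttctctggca
B2m: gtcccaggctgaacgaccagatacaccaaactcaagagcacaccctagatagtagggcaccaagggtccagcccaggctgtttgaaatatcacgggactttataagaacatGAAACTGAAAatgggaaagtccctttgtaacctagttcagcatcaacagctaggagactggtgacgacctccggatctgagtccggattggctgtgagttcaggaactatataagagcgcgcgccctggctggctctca

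Cxcl10, Gbp2 and B2m each held 1 such match and Isg15 held 3, which overlap. A match is a run of letters and not a measured binding site.

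Antigen presentation genes were higher nearly throughout. All 20 MHC class I presentation genes were higher (median 2.85). B2m, the invariant light chain, was at 92.5, 277, 113 and 1683 FPKM, 6.08-fold higher (5.90 to 6.27), and H2-K1, a classical heavy chain, at 11.1, 74.2, 21.6 and 575 FPKM, 7.75-fold higher. The processing machinery showed the wider gaps: Psmb8, a catalytic subunit of the immunoproteasome, was at 0.804, 4.44, 1.26 and 90.2 FPKM, 20.3-fold higher (18.1 to 22.9), and Tap1, a peptide transporter, at 0.50, 6.84, 1.51 and 81.2 FPKM, 11.9-fold higher. Nlrc5, the transactivator of class I genes, was 10.3-fold higher at 2.78 and 28.6 FPKM. Calr, the chaperone calreticulin, was nearest to equality, 2.02-fold higher. H2-Q6 and H2-Q7, close copies whose reads may be split, were 3.43-fold and 3.94-fold higher. Of 11 class II genes 10 were higher (median 2.25). Cd74, the invariant chain, was at 6.04, 98.5, 7.84 and 660.5 FPKM, 6.70-fold higher (6.46 to 6.95), and H2-Ab1 at 2.24, 29.1, 1.64 and 196 FPKM, 6.73-fold higher. Ciita, the class II transactivator, was 2.89-fold higher at 1.22 and 3.54 FPKM. H2-Oa, which tempers peptide loading, was within the 2-fold rule at 0.761 and 1.51 FPKM.

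Chemokines went both ways. Of 23 that entered 15 were higher and 4 lower. Ccl5, made by T and natural killer cells, was at 0.459, 3.91, 0.333 and 36.6 FPKM, 9.36-fold higher, and Cxcl9, an interferon-induced relative of Cxcl10, at 0.0162, 1.39, 0.0212 and 16.5 FPKM, 11.8-fold higher. Cxcl2, a neutrophil attractant, had 0 reads in the other 3 libraries and 4.64 FPKM in old tumor-bearing tissue, at least 63.9-fold higher than in young tumor-bearing tissue. The lower ones are expressed in healthy brain: Cx3cl1, the neuronal ligand of the microglial receptor, was at 180.3, 134, 241 and 30.2 FPKM, 4.45-fold lower, and Ccl27a, Cxcl14 and Cxcl12 were 4.08-fold, 3.17-fold and 2.97-fold lower. Of 11 chemokine receptors 9 were higher, led by Ccr1, 11-fold, and Ccr7, 10.5-fold. Ackr1, a scavenging receptor, was 3.98-fold lower at 34.6 and 8.69 FPKM, and Cx3cr1 differed by 1.34-fold.

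The list of cytotoxic lymphocyte genes had the highest median of the 65 lists. Of 15 that entered, of 20 listed, 13 were higher (median 4.10). Rank, count and median rest in part on members below 1 FPKM in young tumor-bearing tissue, such as Gzmb and Prf1. The floor fixed the direction of such members. Gzmb, the main granzyme of killer cells, was at 0.0341, 0.662, 0 and 17.2 FPKM, 26-fold higher (16.5 to 43.5), and Prf1, perforin, at 0, 0.0968, 0.0495 and 3.28 FPKM, 33.9-fold higher (14.3 to 106). Gzmd, Gzmf and Gzmg had 0 reads in the other 3 libraries and 21.5, 25.6 and 26 FPKM in old tumor-bearing tissue, at least 138-fold, 157-fold and 158-fold higher. They lie with Gzmb and mast cell proteases on chr14:56017971-56262260 (mm10), a span of 13 protein-coding genes of which 9 were higher. Of all genes compared 17.6% were higher. All 9 were below 1 FPKM in young tumor-bearing tissue and entered through the old library alone, as did Prf1. The floor thus fixed their direction, and the count carries no test. Mcpt2, a mast cell protease in that span, had 0 reads in the other 3 libraries and 9.48 FPKM in old tumor-bearing tissue. Granzymes d to g are close copies, so their separate values are uncertain. The general T cell genes were lower in level and in gap: Cd3e was at 0.0719, 0.0980, 0 and 1.01 FPKM, 10.3-fold higher (5.03 to 24.6), and Cd8a, the coreceptor of killer T cells, at 0, 0.247, 0.0879 and 2.6 FPKM, 10.5-fold higher. Cd4 was at 1.41, 1.39, 3.87 and 2.12 FPKM, 1.53-fold higher (1.21 to 1.94), with the old naive library above both tumor-bearing ones. In all 12 of the 14 T cell genes that entered, of 23 listed, were higher (median 2.36). Only 4 of 13 listed B and plasma cell genes entered, of which 3 were higher, among them Cd79a, 11.1-fold at 0.377 and 4.19 FPKM. Cd3e, Cd8a and Cd79a entered through the old library alone, so the floor fixed their direction too. Eomes, listed for killer cells but also a factor of certain cerebellar neurons, was lower at 1.62 and 0.507 FPKM.

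Homeostatic microglia genes were close to equal, in contrast to the immune lists above. Of 15, 14 lay within 2-fold, 1 was lower and 0 were higher, and the median was 0.11, or 0.49 when libraries were scaled by fragments in genes. P2ry12, by which resting microglia sense nucleotides, stood at 11.7, 11.9, 14.7 and 8.06 FPKM, 1.48-fold lower, and Tmem119 at 8.03, 12.5, 12.8 and 13.9 FPKM. Slc2a5, a fructose transporter, was the lower gene at 1.53 and 0.556 FPKM. Of 21 disease-associated microglia genes 14 were higher and 0 lower (median 1.84). Cst7, a cystatin, was at 0, 1.37, 0.259 and 24.3 FPKM, 17.7-fold higher (12.1 to 27.2), Itgax, the CD11c integrin, at 0, 0.697, 0.160 and 8.39 FPKM, 12.0-fold higher, and Gpnmb 9.90-fold higher at 3.72 and 36.8 FPKM. Apoe, the lipid carrier of astrocytes and microglia, was nearly level at 724, 704, 804 and 837 FPKM. Macrophages share many of these genes. Among genes of blood-derived macrophages and dendritic cells 9 of 15 were higher, with Lyz2 at 6.47, 28.2, 12.1 and 244 FPKM, 8.64-fold higher (8.01 to 9.33), Arg1, arginase, at 0.0659, 0.696, 0.143 and 8.67 FPKM, 12.5-fold higher, and Ms4a7 17.1-fold higher at 0.168 and 2.89 FPKM. Flt3 and Zbtb46, dendritic cell genes also present in naive brain, were 3.50-fold and 3.75-fold lower. The 2 neutrophil genes that entered, S100a8 and S100a9, lay within 2-fold.

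Of 22 Fc receptor and complement genes 16 were higher and 2 lower (median 1.77), or 18 and 0 when scaled by fragments in genes. C1qa, a chain of the complement trigger C1q, was at 32, 60.1, 54.3 and 298 FPKM, 4.96-fold higher, and Fcgr4, an activating receptor for immunoglobulin G, at 0.0389, 1.43, 0.458 and 19.8 FPKM, 13.8-fold higher (9.84 to 19.9). C3, the central complement protein, differed less, at 0.247, 10.1, 0.286 and 25.2 FPKM, 2.49-fold. The membrane inhibitors Cd55 and Cd59a were 2.33-fold and 2.41-fold lower. Of 18 pattern recognition and inflammasome genes 15 were higher (median 2.0), with Casp4 16.5-fold higher at 0.647 and 10.7 FPKM and the DNA sensor Cgas 13.7-fold higher at 0.497 and 6.80 FPKM.

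Immune checkpoint genes were higher in 15 of 21 cases and lower in 2 (median 1.59), or in 16 and 0 when scaled by fragments in genes. Cd274, the ligand PD-L1, was at 0.608, 2.50, 1.22 and 22.2 FPKM, 8.90-fold higher (7.64 to 10.4). Its receptor Pdcd1 was at 0.0253, 0.0259, 0.0331 and 2.81 FPKM, with 1 read in young tumor-bearing tissue and a ratio of 108 (19.1 to 4314). Lgals9, a ligand of TIM-3, was 8.93-fold higher at 7.30 and 65.2 FPKM, and Nt5e, an adenosine-producing enzyme, 6.86-fold higher at 1.02 and 7.02 FPKM. Sirpa, the receptor of the CD47 signal, which neurons also express, was 2.58-fold lower, as was Tox, 2.13-fold. Ido1, which degrades tryptophan and is known as an interferon-induced checkpoint, did not join them: it lay below the floor at 0.670, 0.904, 2.0 and 0.424 FPKM, a ratio of 2.13 (1.17 to 4.02) toward the young library. The cytokines were mixed. Of 17 that entered 8 were higher and 1 lower. Spp1, osteopontin, was at 17.7, 13, 4.23 and 94.2 FPKM, 7.26-fold higher, and Il1b, a cytokine of activated myeloid cells, 9.73-fold higher at 0.420 and 4.08 FPKM. Il34, a survival factor for microglia made by neurons, was within 2-fold, 1.91-fold lower at 18.1 and 9.48 FPKM.

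Genes of dividing cells were higher. All 24 mitosis genes were higher (median 3.89, ratios from 2.86 to 5.0), while their median between the naive libraries was -0.32. Any member below 1 FPKM in young tumor-bearing tissue, such as Birc5, entered through the old library alone, so the floor fixed its direction. Top2a, which untangles DNA in mitosis, was at 0.185, 2.11, 0.113 and 49.9 FPKM, 23.6-fold higher (21.3 to 26.3). Mki67, a marker of cycling cells, was at 0.180, 1.19, 0.133 and 18.8 FPKM, 15.8-fold higher (13.9 to 18.1). Birc5, survivin, stood at 0.456 and 17.7 FPKM, 38.8-fold higher (27.2 to 57.4), and Cenpa, the centromere histone, 29.4-fold higher at 1.05 and 30.9 FPKM. Old tumor-bearing tissue was alone at the top, with young tumor-bearing tissue above both naive libraries, and what share of these reads came from tumor cells was not tested. Of 25 replication genes 23 were higher (median 2.64). Mcm3, a subunit of the replicative helicase, was 20.4-fold higher at 1.96 and 39.9 FPKM, and Pcna, which is also used in DNA repair, 4.12-fold higher at 16.4 and 67.7 FPKM. The cyclins Ccne1 and Ccne2 were within 2-fold.

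Promoters of Cdk1, the kinase that drives entry into mitosis (0.780 and 14.5 FPKM, 18.5-fold higher, 14.7 to 23.6), and of Top2a are shown because both carry pairs of elements known from cell cycle genes. Capitals mark CCAAT, the box bound by NF-Y, and TTTGAA, the core of the cell cycle homology region, on either strand (ATTGG and TTCAAA on the other strand). In the 250 bases before the start, CCAAT stood in 16 of 19 mitosis promoters and 12 of 21 replication promoters against 3843 of 10683 (36.0%) of all compared genes, and TTTGAA in 8 of 19 mitosis promoters against 1096 (10.3%). TTTGAA stood in 3 of 21 replication promoters. Neither run of letters was particular to these lists, since CCAAT stood in 13 of 18 MHC class I promoters and TTTGAA in 5 of 11 GBP and IRG promoters, while 2 of 15 synaptic promoters held CCAAT. Sequences are from RefSeq on GRCm38.p6 (mm10). Cdk1 is at chr10:69352913-69353162 (minus strand) and Top2a at chr11:99024190-99024439 (minus strand).
Cdk1: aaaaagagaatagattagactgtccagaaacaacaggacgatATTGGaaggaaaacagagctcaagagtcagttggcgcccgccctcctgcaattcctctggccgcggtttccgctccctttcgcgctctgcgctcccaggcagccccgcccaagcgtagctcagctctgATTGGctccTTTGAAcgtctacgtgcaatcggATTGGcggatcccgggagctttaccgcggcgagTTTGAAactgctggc
Top2a: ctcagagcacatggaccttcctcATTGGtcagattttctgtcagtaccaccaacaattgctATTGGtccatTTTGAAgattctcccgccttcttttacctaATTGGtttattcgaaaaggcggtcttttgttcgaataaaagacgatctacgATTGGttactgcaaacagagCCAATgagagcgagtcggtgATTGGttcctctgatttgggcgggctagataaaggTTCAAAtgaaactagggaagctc

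Several inhibitors of the cell cycle were higher as well. Cdkn2a, which encodes the inhibitors p16 and Arf, was at 0.167, 2.18, 0.491 and 53.5 FPKM, 24.6-fold higher (18.6 to 33.2). Cdkn1a, the inhibitor p21, was 5.02-fold higher at 6.54 and 32.9 FPKM, and Trp53 4.74-fold higher at 6.14 and 29.1 FPKM. Of 12 genes in that list 6 were higher and 0 lower. The targets of Trp53 as a list differed little, with 3 higher, 3 lower and 10 within 2-fold of 16. Sesn1 was 3.68-fold lower and Sesn2 2.93-fold higher. Of 24 secreted factors described in senescent cells 15 were higher and 4 lower (median 1.94), or 17 and 1 when scaled by fragments in genes. Timp1, a protease inhibitor, was at 1.54, 4.67, 1.87 and 70.8 FPKM, 15.1-fold higher, Plaur, the urokinase receptor, 12.5-fold higher at 0.516 and 6.44 FPKM, and Igfbp6 4.33-fold lower at 17.4 and 4.02 FPKM.

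Among 27 genes altered in gliomas 10 were higher and 8 lower, or 11 and 2 when libraries were scaled by fragments in genes. Of all genes compared 17.6% were higher and 27.9% lower, so the share of lower genes in this list was near that of all genes. Cdk6, a cyclin D kinase, was at 0.217, 0.493, 0.265 and 12.4 FPKM, 25.1-fold higher (21.1 to 29.9). Met, the receptor of hepatocyte growth factor, was at 0.904, 1.11, 0.541 and 11.6 FPKM, 10.5-fold higher. Ccnd1, cyclin D1, was 8.14-fold higher at 11.6 and 94.9 FPKM, and Myc 7.85-fold higher at 2.67 and 21.0 FPKM. Among other growth factor receptors Egfr was 3.07-fold lower at 1.6 and 0.520 FPKM, and Pdgfra and Pdgfrb 2.28-fold and 2.08-fold lower. Hras and Braf, abundant in neurons, were 2.13-fold and 2.65-fold lower. Of 15 imprinted protein-coding genes 8 were lower and 1 higher (median -1.05). Ndn, a neuronal growth regulator, was at 55, 49.4, 34.3 and 8.17 FPKM, 6.05-fold lower, and Plagl1, a zinc finger factor of the imprinted network, at 3.01, 4.62, 3.36 and 57.6 FPKM, 12.5-fold higher (11.5 to 13.4).

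Many matrix genes were higher, while the common fibrillar collagens were nearly equal. Of 27 matrix glycoprotein and mesenchymal genes 19 were higher and 1 lower (median 2.31). Emilin1, an elastic fibre protein, was at 0.674, 1.36, 0.803 and 145 FPKM, 107-fold higher (90.0 to 127). Fn1, fibronectin, was 9.83-fold higher at 8.78 and 86.3 FPKM, and Lgals1, galectin 1, at 11.4, 32.7, 13.8 and 475 FPKM, 14.5-fold higher. Zeb1, a transcription factor also found in neural cells, was the lower gene, 2.39-fold. Of 20 collagen genes 15 were within 2-fold, 4 higher and 1 lower. That share of higher genes was near the 17.6% of all genes compared. When libraries were scaled by fragments in genes, 7 collagen genes were higher and 0 lower. Col2a1, the collagen of cartilage, was at 0.201, 1.16, 0.505 and 78.9 FPKM, 68.1-fold higher (59.5 to 78.3), and its partner Col9a1 8.83-fold higher at 2.41 and 21.3 FPKM. Col1a1 was nearly equal at 5.19 and 4.55 FPKM, as was Col3a1 at 3.25 and 3.24 FPKM. Of 20 proteases and inhibitors 10 were higher and 4 lower: Mmp2, a gelatinase, was 19.7-fold higher at 1.28 and 25.1 FPKM, and Timp4, an inhibitor found in brain, 6.10-fold lower at 11.5 and 1.88 FPKM.

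Some simple epithelial genes were low in naive and higher in young than in old tumor-bearing tissue. Krt8, a keratin of simple epithelia, was at 0.375, 23.1, 0 and 1.05 FPKM, 21.9-fold lower (16.4 to 29.9) in old tumor-bearing tissue, and Epcam, an epithelial adhesion molecule, at 0.0480, 3.21, 0 and 0.295 FPKM, 10.9-fold lower. Krt18, the partner of Krt8, was 2.19-fold lower at 3.27 and 1.5 FPKM. For these 3 genes the young tumor-bearing library was the highest of the 4. Of 6 genes in that list that entered 4 were lower and 1 higher, Spint1, 3.03-fold. Krt19, the keratin of ducts, was at 0.0527, 0, 0.103 and 0.0464 FPKM.

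Metabolic and housekeeping lists differed in size and direction. Of 49 cytosolic ribosomal protein genes 40 were higher and 0 lower (median 1.36), a list with many near-identical pseudogenes. Rplp0, a stalk protein of the large subunit, was at 144, 168, 138 and 978 FPKM, 5.82-fold higher. Of 13 mitochondrially encoded genes 12 were lower (median -1.59), with mt-Co1 at 14188, 11889, 15604 and 4678 FPKM, whereas 0 of 34 nuclear genes of the respiratory chain were called in either direction (median -0.27, as for all genes compared, and 0.11 when scaled by fragments in genes). Of 15 circadian clock genes 12 were lower (median -1.51), or 9 when scaled by fragments in genes. Per2 was 5.48-fold lower at 8.78 and 1.6 FPKM. The sources used here do not state the hour of collection. Of 20 endoplasmic reticulum stress genes 10 were higher and 0 lower, with Trib3, a pseudokinase induced by stress, at 0.760, 2.26, 0.932 and 44.4 FPKM, 19.7-fold higher (16 to 24.4), and the chaperone Hspa5 at 114, 61.5, 53.5 and 187 FPKM. Of 19 cholesterol genes 8 were lower and 0 higher, or 3 and 0 when scaled by fragments in genes, led by Hmgcs1, 3.37-fold. Among glycolysis genes, whose median of -0.15 turned to 0.23 when scaled by fragments in genes, Slc16a3, a lactate exporter, was at 0.589, 0.865, 0.757 and 15.8 FPKM, 18.2-fold higher, and Pkm was equal at 234 and 236 FPKM. Gapdh was listed at only 13.1, 27.5, 53.8 and 4.69 FPKM, far below its pathway neighbours, and it has many pseudogene copies, so its value is uncertain. Actb, at 302 and 602 FPKM, was 1.99-fold higher.

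**Figure D4:**
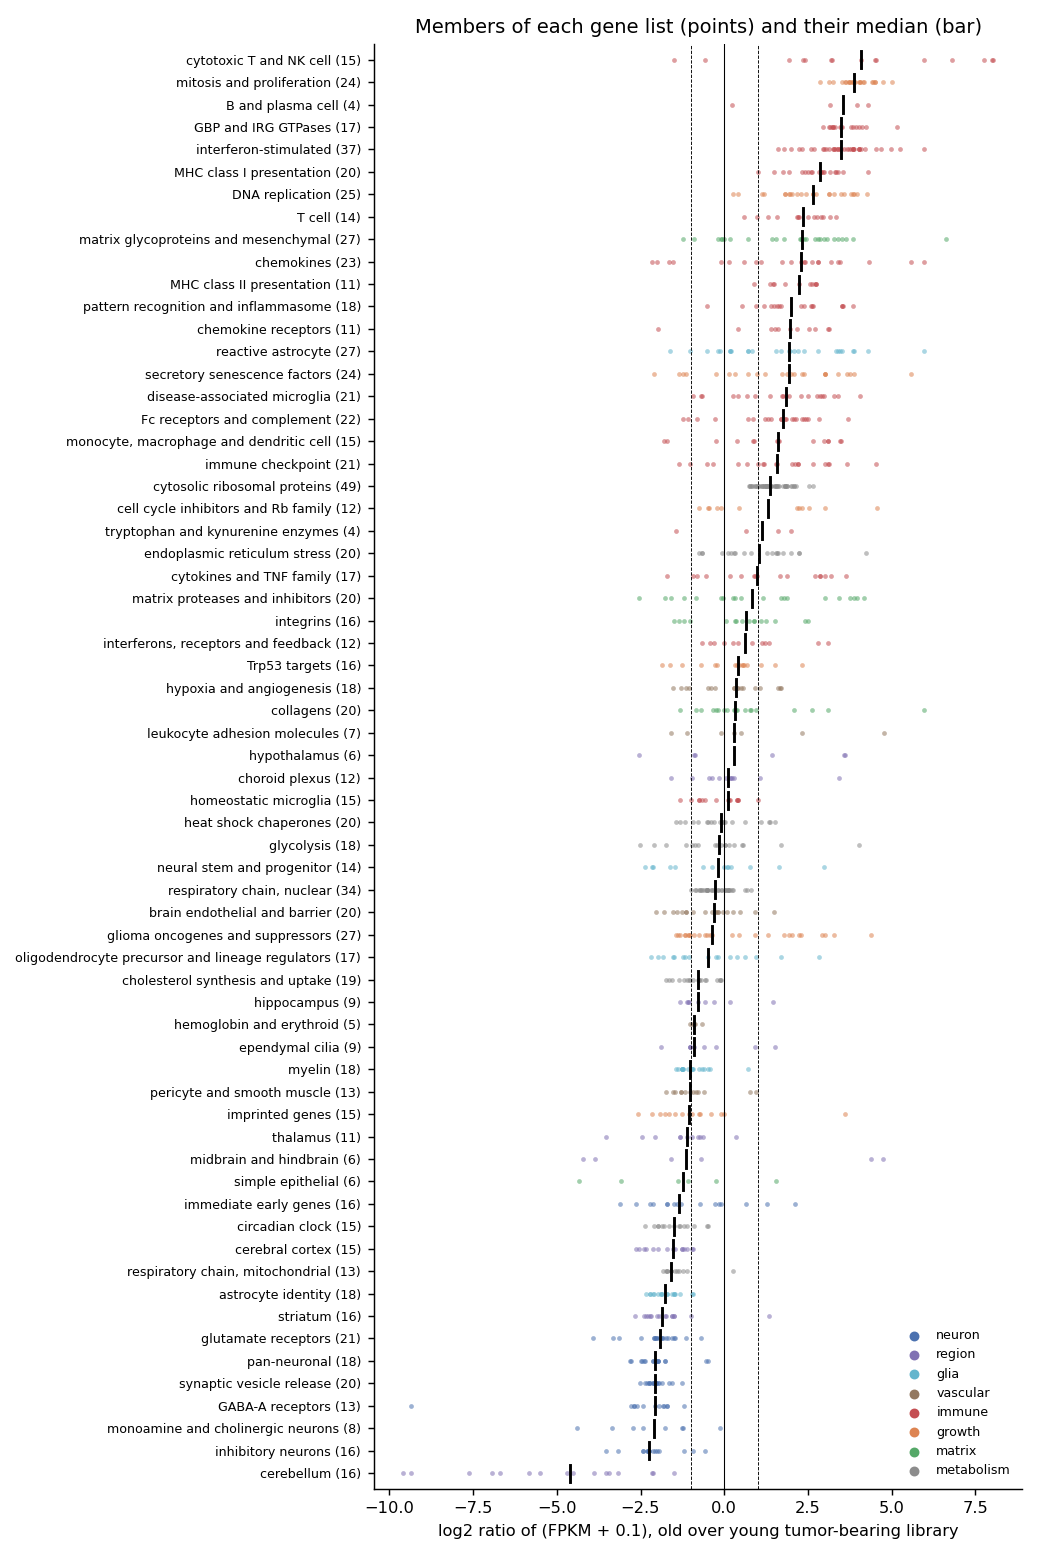
Members of each gene list that entered (points, coloured by kind of list, number in brackets) and their median (black bar), as the log2 ratio of FPKM + 0.1 in the old over the young tumor-bearing library, with dashed lines at 2-fold. Medians run from 4.10 for cytotoxic lymphocyte genes to -4.61 for cerebellar genes, and the immune, mitosis and matrix lists fill the upper end.

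A set of genes was nearly silent in naive brain and plain in old tumor-bearing tissue. Of the genes compared, 119 were at 0.2 FPKM or less in both naive libraries and at 5.0 FPKM or more in old tumor-bearing tissue, a choice that fixes the old library as high and carries no test. Their median was 0.425 FPKM in young and 9.28 FPKM in old tumor-bearing tissue. For the 103 with more than 3 reads in young tumor-bearing tissue the fold was 20.1 at the median, with the middle 50% between 14.6 and 29.3. Another 10 had 0 reads there and 6 had 1 to 3. Chosen from the young side instead, 25 genes were at 1 FPKM or more in young tumor-bearing tissue and at 0.2 FPKM or less in both naive libraries. In old tumor-bearing tissue 21 of them were higher by 2-fold or more and 3, Epcam among them, lower by as much. The calls of Gm17482, higher, and Gm11146, lower, rested on 1 to 3 reads in each tumor-bearing library.

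Genes best known from tissues other than brain had some of the highest ratios. Tex101, a surface protein of germ cells, was at 0, 0, 0.116 and 41.9 FPKM, at least 462-fold higher, and had the highest ratio of the whole comparison. Csn3, a milk casein, was at 0, 0.217, 0 and 66.5 FPKM, 307-fold higher (194 to 518). Afp, the fetal serum protein alpha-fetoprotein, was 160.5-fold higher at 0.104 and 16.7 FPKM, and Rfx6, a factor of pancreatic islets, 266-fold higher (104 to 979) at 0.0499 and 13.3 FPKM. Bglap2, an osteocalcin gene of bone, had 0 reads in the other 3 libraries and 11.4 FPKM in old tumor-bearing tissue. Cytl1, a secreted protein of cartilage, was present in all libraries, at 0.880, 0.379, 0.726 and 69.3 FPKM. Hoxa5, a positional factor of the neck and trunk that forebrain lacks, was at 0, 0, 0 and 2.59 FPKM, at least 32.4-fold higher, and Hoxa4 at 0.0307, 0, 0 and 2.0 FPKM.

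By chromosome the differences were spread over the genome. The median log2 ratio of autosomes ran from -0.54 on chromosome 16 to 0.06 on chromosome 5, against medians of -0.09 to 0.15 between the naive libraries. Chromosome 5 also had the largest share of higher genes, 24.3% of 869, and chromosome 8 the smallest, 11.9% of 732. Chromosome X stood at -0.53. The Y-linked genes Ddx3y (13.9, 13.2, 9.90 and 4.14 FPKM), Eif2s3y (11.1, 13.7, 11.9 and 4.13 FPKM), Uty and Kdm5d were lower by 3.19-fold, 3.32-fold, 3.88-fold and 4.05-fold in old tumor-bearing tissue, so these genes, present in male cells alone, were at similar levels in the other 3 libraries.

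**Figure D5:**
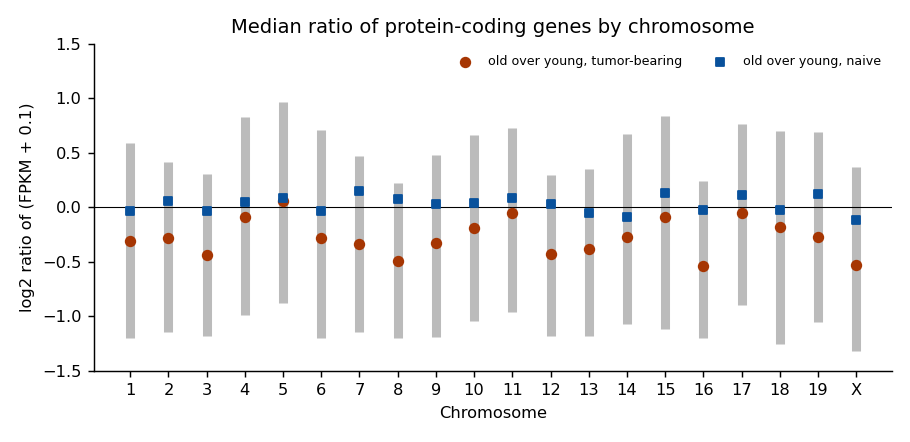
Median log2 ratio of FPKM + 0.1, old over young, of the protein-coding genes on each autosome and on X, for tumor-bearing (circles, with the middle 50% of genes as grey bars) and naive libraries (squares). Tumor-bearing medians lie between -0.54 and 0.06, within the spread of genes on every chromosome.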

How the data were processed

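Poly-A RNA was sequenced as paired-end Illumina libraries, per the labels' protocols, which describe both a strand-specific and an unstranded preparation, so reads of overlapping antisense genes cannot be told apart. The authors deposited 1 FPKM column per library, per the file headers. The submitters' processing notes name HISAT2 and mm10. For the counting program, annotation and filters: not given in the sources used here.

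Gene names and exon lengths were taken from GENCODE M21, which named 54495 of 54532 genes. FPKM times exon length came in whole reads for 97.2% of 32846 genes in all libraries (within 0.03 reads or 2e-05 of the value), which gave divisors of 19999588 (young) and 23253749 (old tumor-bearing) and the reads behind each interval. No source used here says what the divisor counts.

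Promoter sequences are from RefSeq. Log2 ratios used FPKM + 0.1. A fold against 0 reads is a lower bound from 3 reads. Scripts (Python 3.11.15, SciPy 1.17.1) were tested on simulated data. In all, 9 alternatives of the value added, the floor and the scaling were tried. Named genes were the 15 highest and 15 lowest with at least 50 reads and an established symbol, up to 6 members of each of 65 lists and members against the list's direction, and 18 fixed genes. Others were named after their values were seen. The members and lists were chosen with earlier results of these data known.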

Additional observations from a re-analysis of the deposited data

Results flagged for a closer look

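The age difference went opposite ways with and without a tumor for some genes. In tumor-bearing tissue 34 genes were at least 2-fold higher and in naive tissue at least 2-fold lower in the old library (1.41% of the genes higher in tumor-bearing tissue and 8.7% of those lower in naive tissue, below the 17.6% of all genes compared that were higher in old tumor-bearing tissue). Spp1, Hspa5, at 114, 61.5, 53.5 and 187 FPKM, and Prph, a neuronal intermediate filament at 1.59, 3.23, 0.575 and 117 FPKM, were among them. In the other direction 188 genes were lower in tumor-bearing and higher in naive tissue (4.93% and 45.3%, against 27.9% of all genes compared that were lower in old tumor-bearing tissue). Bsn, a scaffold of the synaptic active zone, was among them at 30.5, 39.5, 82.7 and 9.07 FPKM, as was Kcnh3, a potassium channel of forebrain neurons, at 20.5, 23.1, 56.9 and 5.39 FPKM. Old naive tissue also had the highest sums of cortical and striatal genes, as given above. With 1 library a group these differences between the age comparisons were not tested, nor was the part of brain region in them.

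The non-coding gene H19, outside the protein-coding comparison, was at 0.159 FPKM in young naive and 0.0520 FPKM in old naive tissue, 6.54 FPKM in young tumor-bearing and 2497 FPKM in old tumor-bearing tissue, 382-fold apart (342 to 427) between the tumor-bearing libraries.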

How the results depend on the processing

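No paired analysis was possible because each group is 1 library with no shared replicate numbers, and no replicate could be left out. The counts of higher and lower genes stayed within 1.5 times of 2404 and 3811 under all 9 alternatives and the later one. Genes lower in both age comparisons numbered 242, and 138 with 1 in place of 0.1 added, 380 with no floor and 103 with a floor of 5 FPKM. Genes higher in both numbered 63, and 16, 176 and 15 under the same settings. The cause was not tested. The median of 4 tryptophan genes turned from 1.12 to -1.43 with that floor and to -0.40 with a floor on the mean. The median of 6 midbrain and hindbrain genes turned from -1.14 to 4.39 without genes 2-fold apart in naive tissue, an alternative chosen after seeing the data, because 3 genes were left. Of 392 named genes, 42 crossed 2-fold with scaling by fragments in genes. For genes with few reads in young tumor-bearing tissue, depth limits the fold.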

Other observations

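Non-coding genes went both ways. Among 701 such genes with at least 100 reads in either tumor-bearing library, the old one was 2-fold or more above the young one for 210 and below it for 236, with a median log2 ratio of -0.22. Mir17hg, the host of a microRNA cluster known from dividing cells, was at 0.0138, 0.325, 0.108 and 6.49 FPKM, and Mir142hg, the host of a microRNA of blood cells, 27.7-fold higher (10.6 to 103). Mir124a-1hg, the host of the neuronal microRNA miR-124, was at 48.2, 61.2, 53.2 and 9.56 FPKM, 6.4-fold lower (5.99 to 6.83). The imprinted RNAs Meg3 and Rian, expressed in neurons, were 3.76-fold and 5.21-fold lower. The genes named here were picked with their values known.

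Some genes annotated on unplaced scaffolds stood apart. Of 19 protein-coding genes there that entered, 13 were higher and 2 lower in old tumor-bearing tissue, with a median log2 ratio of 4.24. Of these 13, 8 had fewer than 50 reads in that library. All of the 13 but AC149090.1 and CAAA01147332.1 entered through the old library alone, so the floor fixed their direction. AC149090.1 and CAAA01147332.1 were also higher in old than in young naive tissue, with log2 ratios of 2.25 and 1.21.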
